A study of Haemaphysalis flava with 2 samples.

Results

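TIL-domain, cystatin, Kazal-type and carboxypeptidase inhibitors are small secreted proteins that block proteases, and 27 contigs carrying such a name were followed in the salivary glands of a hard tick, Haemaphysalis flava. The members were chosen by words in the name of the best-matching UniProt protein. The rule itself used no levels, but earlier results of these data were known when it was set. The members are 27 of 54357 assembled contigs. They fall into 17 TIL-domain contigs, 3 cystatins, 3 Kazal-type contigs and 4 carboxypeptidase inhibitors, and no contig was named a thyropin or thyroglobulin. The same rule left out contig_51851, whose name joins a Kazal and a Kunitz domain and which had 1 read from engorged and 30 from semi-engorged ticks. Poly(A) RNA was sequenced from the salivary glands of engorged ticks (the ET library) and of semi-engorged ticks (the SET library), with 1 library per stage. The series text speaks of 100 glands and 50 ticks per stage, so each library was treated as 1 pool. No source used here gives the sex or age of the ticks or the host they fed on. The contigs were given as counts without sequences, so none is printed and each contig carries only the name of its best match, often from another species.

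Protease inhibitors of tick saliva act on enzymes of the host and of the tick. A TIL domain, short for trypsin inhibitor-like, is a compact fold held by disulfide bonds that presents a loop to the active site of a serine protease; in the tick annotation, monotil names a peptide with a single such domain and bitil a peptide with a pair of them. Cystatins block papain-like cysteine proteases such as cathepsins, and salivary cystatins of other ticks dampen host immune cells. Kazal domains block serine proteases, and tick carboxypeptidase inhibitors, first described in Rhipicephalus bursa, block metallocarboxypeptidases, among them the plasma carboxypeptidase that slows the breakdown of fibrin clots.

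The libraries held 57892372 ET and 54039984 SET reads. The 376 contigs named after salivary secreted families (lipocalins, basic tail proteins, evasins, cement and other salivary names) took 1.35% and 2.40% of the reads, so transcripts named after the labelled tissue were present in both. Among the 373 of them that were tested, 84 were at least 2-fold higher in the ET and 180 in the SET library. This word list overlaps others used below. It takes in the salivary cystatin contig_22357 and some contigs also listed as serpins or as cathepsins and legumains. Over all tested contigs, 13.0% were higher in the ET and 15.5% in the SET library. Word lists for other cell types counted 8 and 7 of 33 contigs for muscle, 1 and 2 of 10 for nerve, 3 and 0 of 33 for haemocyte and fat body, and 5 and 11 of 39 for midgut and cuticle. The midgut and cuticle contigs summed to 0.0308% of the ET and 0.0501% of the SET reads, and 2 and 4 of its 45 contigs had 0 reads. Host blood counted 3 and 0 of 4, but its contigs summed to near equal shares, 0.00730% of the ET and 0.00733% of the SET reads. The part of these cells in the values of the inhibitors was not tested.

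Most TIL-domain contigs stood higher in the SET library, while the cystatins, Kazal-type contigs and carboxypeptidase inhibitors went in both directions. Levels are given as CPM, reads of a contig per 1000000 library reads, and a contig counted as higher in ET or in SET when the log2 ratio of CPM + 1, ET over SET, reached 1 or -1. All 27 contigs passed the filter of 20 reads over both libraries. Of these, 16 were higher in the SET and 2 in the ET library, against 15.5% and 13.0% of all 47965 tested contigs. The median log2 fold of the 27 contigs was -1.46 and that of all tested contigs -0.049. Together they held 5771 ET reads, 0.00997% of the library (Wilson 95% interval 0.00971% to 0.0102%), and 27089 SET reads, 0.0501% (0.0495% to 0.0507%). With 1 library per stage no difference here has a replicate check, and every interval covers counting error only. In glands pooled whole, fewer cells that make a transcript and less of it per cell cannot be told apart.

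**Figure D1:**
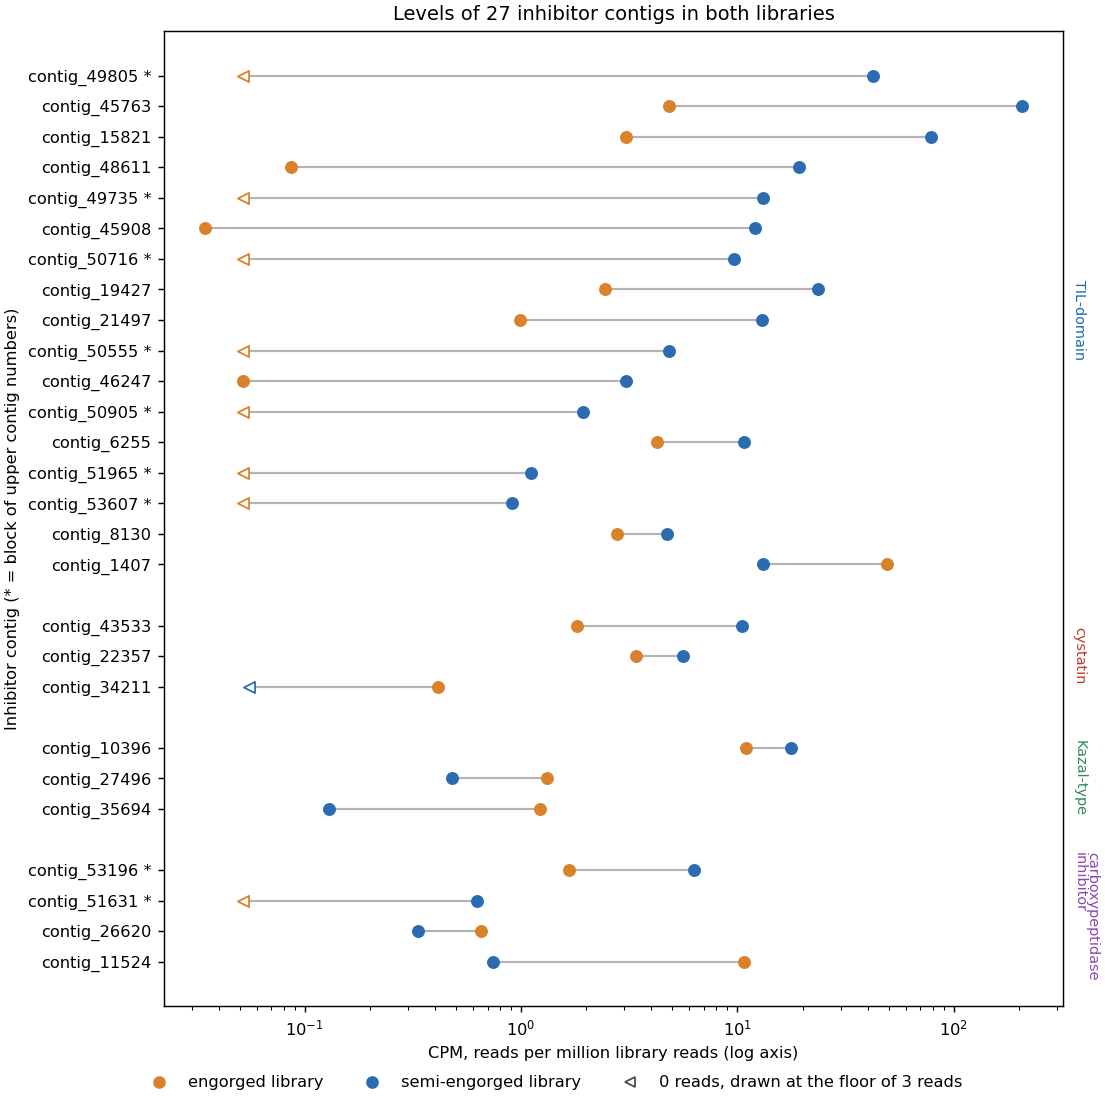
CPM of each of the 27 inhibitor contigs in the ET (orange) and the SET (blue) library on a log axis, grouped by class, with counts of 0 drawn as open triangles at the floor of 3 reads. Of the 17 TIL-domain contigs, 16 have the blue point to the right, while 5 of the other 10 contigs have the orange point to the right.

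Among the 17 TIL-domain contigs, 14 were higher in the SET library, 1 was higher in the ET library and 2 were in neither class. Their median log2 fold was -2.82, and 16 of 17 had the lower CPM in the ET library. The class held 3911 ET and 24796 SET reads, a level 6.79-fold higher in the SET library (Clopper-Pearson 95% interval 6.57 to 7.03). Summed per length, the class stood at 83.0 RPKM (reads per kilobase of contig and per 1000000 library reads) in the ET and 819 RPKM in the SET library. Both names took part. Of the 10 monotil contigs 8 were higher in the SET and 1 in the ET library, and of the 7 bitil contigs 6 and 0. The bitil contigs together were 11.2-fold higher in the SET library (10.4 to 12.1) and the monotil contigs 5.78-fold (5.56 to 6.004). By median log2 fold the order was the reverse, at -3.12 for the monotil and -1.95 for the bitil contigs. Of the 3180 monotil ET reads, 2840 fell on a single contig, contig_1407, described below.

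The monotil contig_45763 led the class in the SET library, with 281 ET and 11204 SET reads. It is 497 bases long and stood at 9.77 RPKM in the ET and 417 RPKM in the SET library, where it ranked 414 among all contigs. Its CPM was 42.7-fold higher in the SET library (37.9 to 48.3). Without it the class was still 4.01-fold higher there (3.87 to 4.16), and 13 of the remaining 16 contigs were called in that direction. A second contig with the same best match, contig_21497, had 57 and 702 reads and was 13.2-fold higher (10.1 to 17.6). Both contigs of this monotil protein were thus on the SET side, by folds whose intervals did not overlap.

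The one TIL-domain contig on the other side was contig_1407, named as a fragment of a monotil peptide. It had 2840 ET and 710 SET reads and was 3.73-fold higher in the ET library (3.44 to 4.06). Its level went from 13.9 RPKM in the SET to 51.9 RPKM in the ET library, and it was the most abundant of the 27 contigs in the latter. The make-up of the class therefore differed: contig_1407 took 72.6% of the TIL-domain reads in the ET and 2.86% in the SET library, whereas contig_45763 took 7.18% and 45.2%. No other TIL-domain contig had a higher CPM in the ET library.

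**Figure D2:**
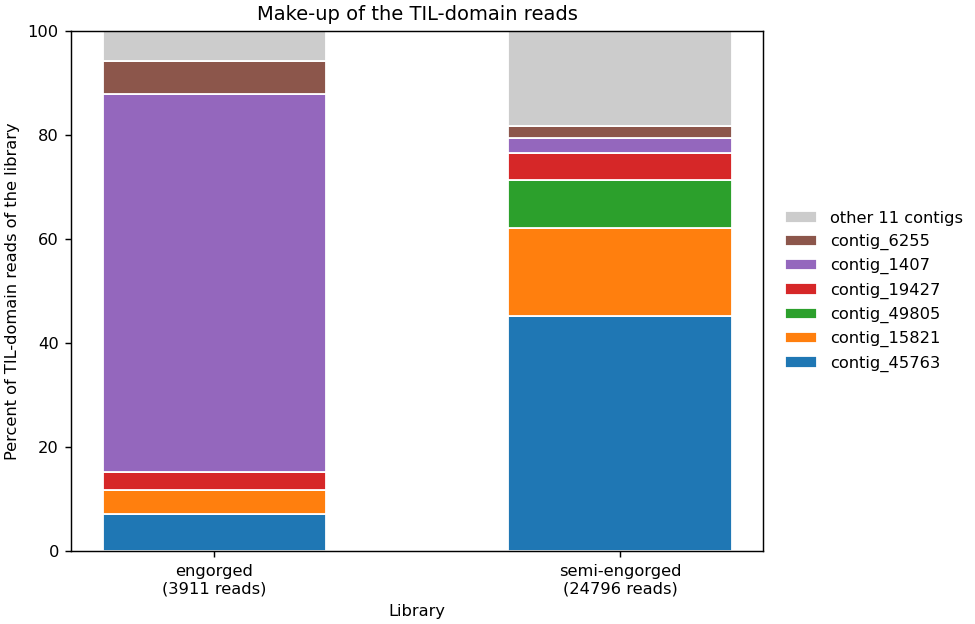
Percent of the TIL-domain reads of each library taken by single contigs, for the 6 contigs with at least 5% in either library and for the other 11 together. One contig (contig_1407, 72.6%) fills most of the ET bar, and contig_45763 (45.2%) and contig_15821 (17.0%) fill most of the SET bar.

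Of the 17 TIL-domain contigs, 7 had no ET read. All 7 carry numbers from contig_49623 on, a block of upper contig numbers in which 65.7% of the contigs had no ET read, against 4405 of all 54357 contigs. How the contigs were assembled and numbered is not given in the sources used here, so whether the ET reads had the same chance to form these contigs is not known, and the folds against 0 below carry that limit. The monotil contig_49805 had 0 ET and 2288 SET reads. Its level was 817-fold lower in the ET library with 3 reads in place of 0. From the observed counts, with 0 kept, the lower Clopper-Pearson limit of the fold was 664. The best match of contig_49805 was shared by contig_49735 (0 and 707 reads), contig_50555 (0 and 260), contig_51965 (0 and 60) and contig_53607 (0 and 49). These 5 contigs of a single monotil protein, between 433 and 570 bases long, had 0 ET and 3364 SET reads together. The last of them stood at 0.907 CPM and was in neither class, because the added 1 holds back contigs below 1 CPM; contig_51965, at 1.11 CPM, was just past the threshold. A further monotil protein was matched by contig_50716, with 0 and 523 reads, and by contig_45908, with 2 and 652 reads, 349-fold higher in the SET library (96.3 to 2890). Contigs that share a best match can be close copies or pieces of 1 transcript, and reads may be split among them. Summed per best-matching protein, a setting added after the values were seen, 7 of 8 TIL-domain proteins were higher in the SET and 1 in the ET library, against 13.7% and 18.5% of 11417 proteins.

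The bitil peptides ranged widely, even among contigs with the same best match. The most abundant in the SET library, contig_15821, had 177 ET and 4226 SET reads and was 25.6-fold higher in the SET library (22.0 to 29.9). Its best match was shared by contig_48611 with 5 and 1042 reads, a fold of 223 (95.4 to 689), and by contig_46247 with 3 and 165 reads, a fold of 58.9 (19.8 to 289). The remaining contig of this protein, contig_8130, had 160 and 255 reads, a fold of 1.71 (1.40 to 2.09), and was in neither class. In the ET library contig_15821 and contig_8130 thus stood at 3.83 and 4.65 RPKM, while in the SET library they stood at 98.0 and 7.94 RPKM. Of the other bitil contigs, contig_19427 had 141 and 1270 reads (9.65-fold higher, 8.10 to 11.6). Another, contig_6255, had 245 and 578 reads (2.53-fold, 2.17 to 2.95) and was the most abundant bitil contig in the ET library, at 5.72 RPKM. The last, contig_50905, had 0 and 105 reads. With 3 reads in place of 0 its level was 37.5-fold lower in the ET library, a value that is not a lower limit.

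The 3 cystatins differed from each other. Cystatin-2 (contig_43533), matched to a cystatin that was linked to innate immunity in Haemaphysalis longicornis, had 105 ET and 568 SET reads and was 5.795-fold higher in the SET library (4.70 to 7.21). The contig named tick salivary cystatin (contig_22357) had 196 and 304 reads, a fold of 1.66 (1.38 to 1.999), and was in neither class. This contig is 1786 bases long, against 422 and 402 bases for the other cystatins, so that per length it stood at 1.90 and 3.15 RPKM, below the 4.30 and 24.9 RPKM of cystatin-2. The third (contig_34211), matched to the cyst-3 product of Haemaphysalis longicornis, had 24 ET and 0 SET reads. With 3 reads in place of 0 it was 7.47-fold higher in the ET library, and the lower Clopper-Pearson limit from the observed counts was 5.62. At 0.415 CPM it could not reach the threshold. All 3 were low: the cystatins summed to 325 and 872 reads, 0.000561% and 0.00161% of the libraries.

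More of the cysteine proteases, the enzymes that cystatins act on, were higher in the ET than in the SET library. Of 18 cathepsin, legumain and related contigs, 9 (50%) were higher in the ET and 4 (22.2%) in the SET library. Over all tested contigs these shares were 13.0% and 15.5%. The median log2 fold of the list was 1.03, and 6 of the 18 had the lower CPM in the ET library. No difference between this list and the cystatins was tested. They held 60478 ET and 13189 SET reads, 0.104% and 0.0244% of the libraries. Cathepsin L-like proteinase B (contig_731), a papain-like enzyme, led the list with 1725 RPKM in the ET and 399 RPKM in the SET library. The largest fold of the list was that of a cathepsin F-like protease (contig_2228), with 7601 and 691 reads. Summed per length, the cathepsins and legumains stood at 2042 RPKM in the ET and 491 RPKM in the SET library, and the cystatins at 7.22 and 28.1 RPKM.

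The 3 Kazal-type contigs were in neither class, with log2 folds of -0.64 to 0.98. The most abundant, contig_10396, had 635 ET and 955 SET reads, 1.61-fold higher in the SET library (1.46 to 1.78). Its best match joins a Kazal domain with domains of the insulin-like growth factor binding and immunoglobulin kinds, and such a protein need not be a protease inhibitor. The contig matched to the inhibitor SPI-1 of the horseshoe crab Carcinoscorpius rotundicauda (contig_35694) had 71 and 7 reads, a ratio of 9.47 in favour of the ET library (4.36 to 24.4). At 1.23 CPM against 0.130 its log2 fold of 0.98 stayed just below the threshold; it was past it at 1.31 with totals that leave out the 50 most abundant contigs and at 2.53 with 0.1 added to the CPM. The contig matched to inhibitor 1 of the silkworm Bombyx mori (contig_27496) had 76 and 26 reads, a ratio of 2.73 (1.73 to 4.44). With 0.1 added its log2 fold was 1.28.

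Serine proteases, the enzymes that TIL and Kazal domains act on, counted 7 contigs higher in the ET and 2 in the SET library out of 31. These are 22.6% and 6.45%, against 13.0% and 15.5% of all tested contigs. The median log2 fold of the list was 0.042. The word pattern also took in 3 contigs of transcription, elongation and tubulin factors; without them the counts were 7 and 2 of 28. A tick serine protease (contig_6403) had 7341 ET and 123 SET reads and was 55.7-fold higher in the ET library (46.6 to 67.1). It led the list per length in the ET library, at 70.0 RPKM. The contig with the highest mean RPKM of both libraries, matched to the membrane protease stubble (First_Contig127), stood at 42.0 RPKM in the ET and 79.2 RPKM in the SET library. It had 5392 and 9500 reads, 1.89-fold higher in the SET library (1.83 to 1.95). Of the serine proteases 16 of 31 had a higher CPM in the ET library, and of the TIL-domain contigs 1 of 17. This difference between the lists was not tested.

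The 4 carboxypeptidase inhibitors match only 2 proteins, and the contigs of each protein went in opposite directions. For each protein, the contig on the SET side lies in the block of upper contig numbers and the contig on the ET side does not. In that block 40.0% of tested contigs were higher in the SET and 0.476% in the ET library. The part of the block in this split was not tested. The contig_11524, matched to the inhibitor of Haemaphysalis longicornis, had 619 ET and 40 SET reads. It was 14.4-fold higher in the ET library (10.5 to 20.4), the highest log2 fold of the 27 contigs, and stood at 20.9 against 1.45 RPKM. The second contig with this match, contig_51631, had 0 and 34 reads. With 3 reads in place of 0 it was 12.1-fold lower in the ET library, and the lower Clopper-Pearson limit from the observed counts was 9.35. At 0.629 CPM it could not be called. Of the contigs matched to the inhibitor of Rhipicephalus bursa, contig_53196 had 96 and 341 reads, 3.81-fold higher in the SET library (3.03 to 4.82). The other, contig_26620, had 38 and 18 reads, a ratio of 1.97 in favour of the ET library (1.097 to 3.67), and could not be called at 0.656 CPM. The class as a whole held 753 and 433 reads and was 1.62-fold higher in the ET library (1.44 to 1.83), and contig_11524 made up 82.2% of its ET reads.

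The carboxypeptidases counted 4 contigs higher in the ET and 0 in the SET library out of 24, against 13.0% and 15.5% of all tested contigs. Their ET share, 16.7%, was near that of all contigs. The largest fold was that of a serine carboxypeptidase (contig_12526), with 857 and 69 reads. Serine carboxypeptidases, enzymes of the lysosome, belong to another catalytic class than the targets of the tick inhibitors. The 5 zinc carboxypeptidase and carboxypeptidase M contigs, picked out after the values were seen, were all in neither class, with log2 folds of -0.79 to 0.93. The most abundant of them, contig_3262, had 4428 ET and 7186 SET reads, 1.74-fold higher in the SET library (1.67 to 1.81).

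Set beside other inhibitor families, the TIL-domain contigs stood below the serpins in the ET library. Their place beside the serpins in the SET library depended on which contigs were counted. Summed per length they stood at 83.0 RPKM in the ET and 819 RPKM in the SET library, the serpins at 750 and 473 RPKM, and the Kunitz-domain inhibitors at 10302 and 8908 RPKM. Without contig_45763 the TIL-domain contigs summed to 401 RPKM in the SET library, below the 473 RPKM of all serpins. No serpin was left out there, and 91.7 RPKM of the serpin sum came from 1 contig, contig_50185. Among Kunitz-domain contigs 36 of 68 were higher in the SET and 19 in the ET library, and among serpins 4 and 12 of 31. Over all tested contigs 15.5% were higher in the SET and 13.0% in the ET library. The Kunitz-domain contig with the highest mean RPKM of both libraries, contig_13394, had 52024 ET and 75344 SET reads, and the one with the largest fold, contig_1564, had 67842 and 1. The serpin with the highest mean RPKM of both libraries, contig_1782, had 13300 and 4458 reads and stood at 228 and 81.8 RPKM. The serpin with the largest fold, contig_50185, had 0 and 2036 reads and stood at 91.7 RPKM in the SET library, above contig_1782. This contig lies in the block of upper contig numbers, so the limit given for folds against 0 holds here too. The block holds 4 of 33 serpins, 20 of 69 Kunitz-domain and 7 of 17 TIL-domain contigs, and its part in these sums and medians was not tested. By median log2 fold the order was -2.82 for TIL-domain, -1.53 for Kunitz-domain, -0.14 for the other 10 inhibitor contigs and 0.48 for serpins. Lists were described by their counts and medians only, and no difference between them was tested.

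**Figure D3:**
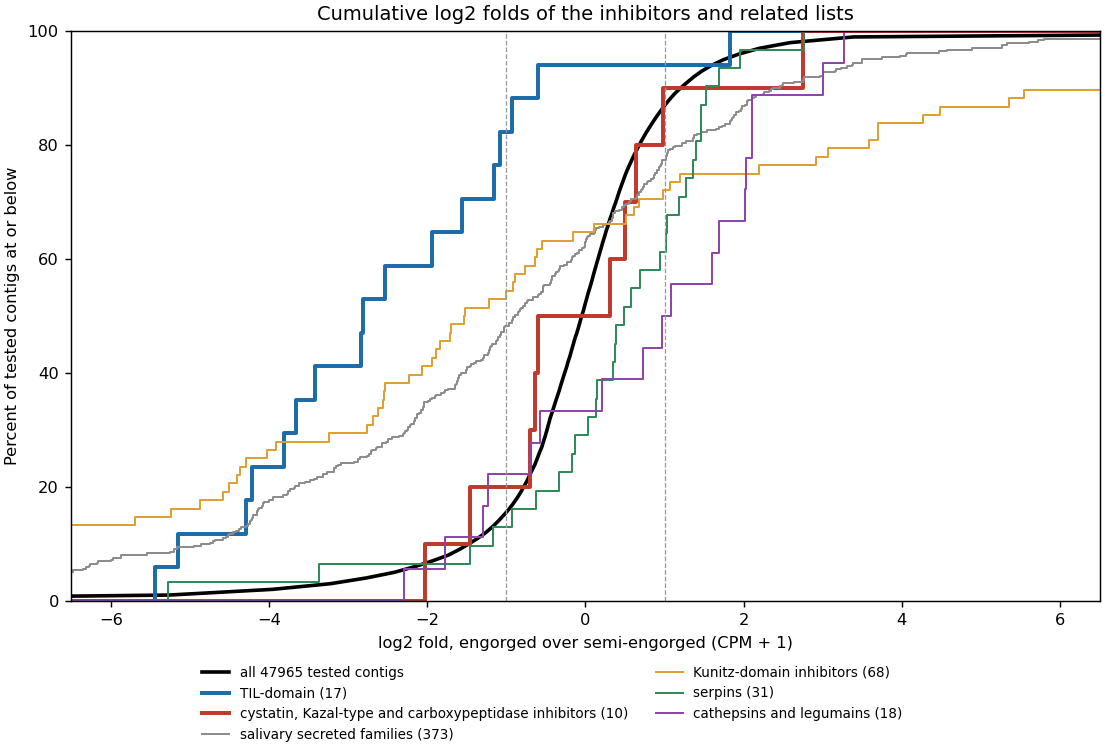
Percent of the tested contigs of each list at or below a given log2 fold of CPM + 1, ET over SET, with dashed lines at -1 and 1. The TIL-domain curve (17 contigs, median -2.82) lies left of the curve of all 47965 tested contigs (median -0.049), and the curve of the other 10 inhibitor contigs (median -0.14) lies near it.

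Contig numbers moved with these values. At the upper end of the numbers, from contig_49623 on, 6004 contigs had 0 ET reads in 65.7% and 0 SET reads in 0% of cases, and 40.0% of its 4205 tested contigs were higher in the SET and 0.476% in the ET library. This block holds 9 of the 27 inhibitor contigs, 7 of them TIL-domain contigs and the other 2 carboxypeptidase inhibitors, and 8 of the 9 had 0 ET reads. Of these 9, 7 were higher in the SET library. Outside the block, 9 of 18 inhibitor contigs were higher in the SET and 2 in the ET library, against 13.1% and 14.3% of 43760 tested contigs. For the TIL-domain class these counts were 8 and 1 of 10 outside the block, with a median log2 fold of -2.83, close to the -2.82 of the whole class. The class was 5.70-fold higher in the SET library there (5.51 to 5.90). From number 40000 up to the block, where 18.6% of tested contigs were higher in the SET library, 5 of 5 inhibitor contigs were. Here 0.444% were higher in the ET library. Below 40000 the counts were 4 of 13 for the SET and 2 of 13 for the ET library, against 11.9% and 16.7% of tested contigs. The part of the contig number in the calls was not tested.

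**Figure D4:**
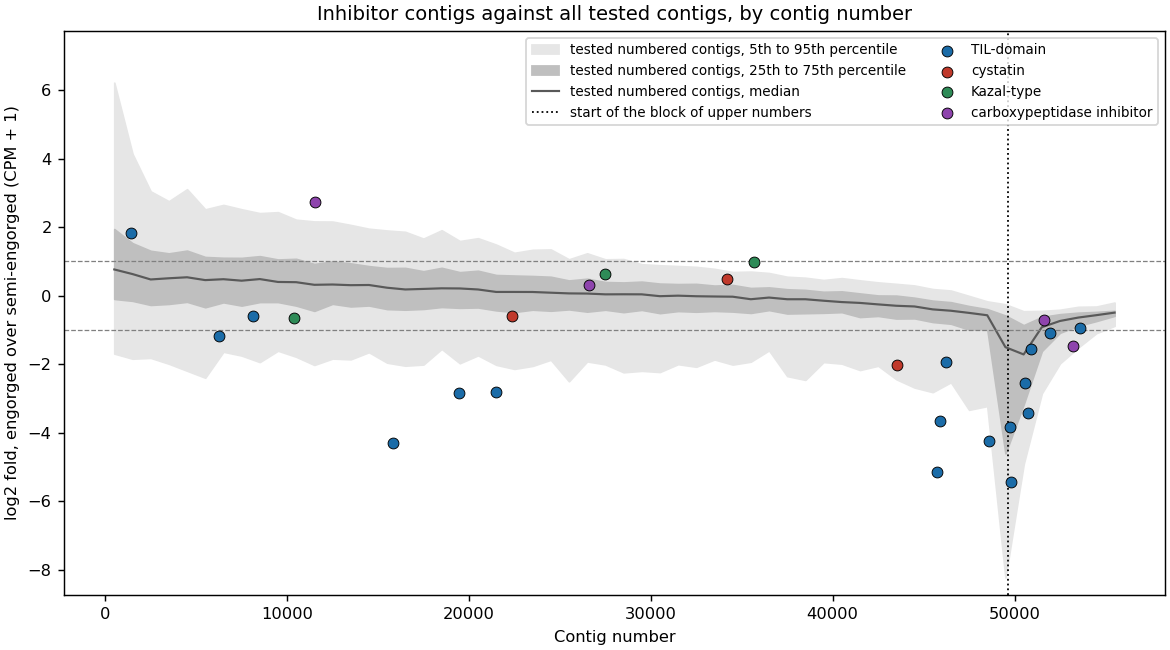
Log2 fold of CPM + 1, ET over SET, against contig number for the 27 inhibitor contigs (coloured points); grey bands and line give percentiles of the tested numbered contigs in bins of 1000 numbers. The grey median falls towards the block of upper numbers, and TIL-domain points lie below the dashed line at -1 both inside the block of upper numbers (6 of 7) and outside it (8 of 10).

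The counts rest on how low contigs are treated. With 0.1 in place of 1 added to the CPM, 18 of the 27 contigs were higher in the SET and 5 in the ET library, against 31.3% and 22.8% of tested contigs, and with 10 added they were 8 and 1, against 5.23% and 4.21%. With zeros set to 3 reads and nothing added, 18 and 5 were called, against 33.5% and 24.9%. On the deposited RPKM + 1 the counts were 18 and 4, against 20.1% and 14.8%. With totals that leave out the 50 most abundant contigs they were 17 and 3, against 16.3% and 18.2%, and at a log2 threshold of 2 they were 11 and 1, against 6.72% and 3.68%. With 1 contig per identical description, 4 and 2 of 11 contigs were called, against 13.3% and 20.7%; of these 11, the 4 TIL-domain contigs counted 3 and 1. Per best-matching protein the 27 contigs gave 9 and 2 of 16. In all of these settings more of the 27 contigs were higher in the SET than in the ET library.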

How the data were processed

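Read counts and RPKM values per contig were deposited by the authors in 1 table, with 1 engorged and 1 semi-engorged column of each, per the file headers. The counts are raw reads per contig. The deposited RPKM values are reads per kilobase of contig and per 1000000 reads of the library; dividing reads by RPKM gave whole contig lengths to within 0.000232 bases. CASAVA 1.8, TopHat and Cufflinks are named, with no role, in the submitters' processing notes; no source used here gives the assembler, the annotation search or the read counter. RNA was extracted with Trizol and libraries followed a TruSeq guide, per the labels' protocols.

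From the counts, CPM, log2 of the ratio of CPM + 1, CPM ratios with exact Clopper-Pearson 95% intervals and shares with Wilson 95% intervals were computed (Python 3.11.15, scipy 1.17.1; edgeR 4.0.16 for TMM factors only). Contigs with at least 20 reads over both libraries were tested, in the sense that the size rule was applied; with 1 library per stage no p-value was computed. For folds, 3 reads stood in for a count of 0. Reads carry no molecular identifiers. The calculations were tested on simulated Poisson counts, with changes planted only in contigs with many reads. That check did not cover low contigs or variation between libraries. All 27 inhibitor contigs are described; in the protease and other inhibitor lists the contig with the highest mean RPKM of both libraries and the one with the largest fold could be named. Members, word lists and rules were chosen with earlier results of these data known. The median log2 ratio of the 17032 contigs that reached 100 reads in each library was 0.23; with it removed, the median log2 fold was -1.56 for the 27 contigs, -2.93 for the TIL-domain class and -0.15 for all tested contigs. The start of the block of upper contig numbers is where the share of contigs without an engorged read rises most between the 50 contigs before and after. Other pseudocounts, filters, scalings, thresholds and groupings were tried.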

Additional observations from a re-analysis of the deposited data

How the results depend on the processing

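No paired analysis was possible because each stage has 1 library; for the same reason no replicate could be left out. TIL-domain settings and sums per protein were added after the data were seen. The 27 contigs gave 2 higher in the engorged (ET) and 16 in the semi-engorged (SET) library, the TIL-domain class 1 and 14. Over all tested contigs these shares were 13.0% and 15.5%. No contig changed sign with the median log2 ratio set to 0 or with totals without the 50 most abundant contigs. None did under TMM factors, which were close to 1 (ET 0.999, SET 1.001). Deposited RPKM, other pseudocounts and zeros set to 3 reads could not change a sign here. Both libraries share the contig length and the added value, and counts opposite a 0 were well above 3. The ET count was 5 of 27 with a pseudocount of 0.1 and with zeros set to 3 reads, against 22.8% and 24.9% of all tested contigs. It was 4 with RPKM (14.8% of all), 1 with a pseudocount of 10 (4.21%) and 1 at a log2 threshold of 2 (3.68%). The threshold of 2 left 0 TIL-domain contigs there. The SET count was 8 with a pseudocount of 10, all of them TIL-domain (8), against 5.23% of all tested contigs. It was 4 of 11 with 1 contig per identical description (TIL-domain 3 of 4), 9 of 16 with reads summed per protein (7 of 8) and 9 of 18 without the block (8 of 10). These settings hold fewer contigs by construction, and over all contigs or proteins tested in them 13.3%, 13.7% and 13.1% were higher in the SET library. Medians were -3.22 (TIL-domain -4.38) with a pseudocount of 0.1, -0.40 (-0.98) with 10 and -3.60 (-5.23) with zeros set to 3 reads, and -0.60 for the 27 contigs with 1 contig per description. The ratio of shares, ET over SET, was 0.199 (TIL-domain 0.147). It was 0.323 (0.249) without contig_45763, the most abundant in the SET library, 0.232 (0.172) with totals without the 50 most abundant contigs and 0.220 (0.166) when the reads of the block were left out of the library totals as well. With the totals kept whole, it was 0.233 (0.175) outside the block. With 1 added, none of the 4 contigs under 1 CPM in both libraries could be called; with 0.1 added, contig_53607 was at -3.33, contig_51631 at -2.87 and contig_34211 at 2.36, and contig_26620 stayed below the threshold at 0.80. Depth shows in the width of the intervals of low contigs, such as a ratio of 1.97 (1.097 to 3.67) for contig_26620.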
